A study of Mus musculus with 22 samples.

Results

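The MHC class II presentation genes are 10 genes of one pathway: H2-Aa, H2-Ab1 and H2-Eb1, which encode chains of the classical class II molecules I-A and I-E, Cd74, which encodes the invariant chain, H2-DMa, H2-DMb1 and H2-DMb2, which encode the peptide exchange factor H2-DM, H2-Oa and H2-Ob, which encode its inhibitor H2-DO, and Ciita, which encodes the class II transactivator. They were chosen by symbol, with earlier results of these data known. All 10 were found in each table. The tables list 37669 genes for large Pro-B, 37851 for large Pre-B and 26095 for small Pre-B cells (41814 different symbols in all). The study asked what the fetal RNA-binding protein LIN28B changes when it is switched on in adult B cell development. Adult tet-LIN28B mice carried 1 copy of a doxycycline-inducible, Flag-tagged human LIN28B cDNA in the Col1a locus together with the Rosa26 rtTA*m2 transactivator, and the littermate controls were heterozygous for the transactivator alone. Chow with 200 mg/kg doxycycline was fed to both genotypes during the last 10 days, so the drug and the transactivator were shared and the transgene was not restricted to B cells. Their strain background is not stated in the labels or methods.

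Bone marrow was depleted of CD3+, TER119+ and GR1+ cells, and live CD93+ IgM- B cell precursors were sorted as large Pro-B (cKIT+), large Pre-B (cKIT-) and small Pre-B cells (cKIT-, low forward scatter). Large Pro-B cells had 4 control and 5 tet-LIN28B libraries, large Pre-B cells had 3 and 4, and small Pre-B cells had 3 of each genotype. They came from 15 mice, and 7 of the mice were used for the Pro-B gate and the large Pre-B gate alike. Small Pre-B libraries were the deepest (32.0 to 51.0 M recovered reads), followed by those of large Pre-B (19.9 to 30.4 M) and large Pro-B cells (13.9 to 23.3 M). Large Pro-B control 4 and tet-LIN28B 4 stood apart from the other libraries of their stage (median correlation over genes 0.874 and 0.864, against at least 0.911 for the others), as did large Pre-B control 3 (0.923, against at least 0.95). Class II genotype estimates printed for these 2 stages are followed by their values without them. Cd79a, a signalling chain of the B cell receptor, lay between 446 and 3633 RPM (reads of a gene per M recovered reads) in every library, Kit was highest in the Pro-B gate (19.5 to 93.8 RPM, against at most 3.81 in both Pre-B gates), and Il2ra was highest in small Pre-B cells (295 to 315 in controls and 125 to 147 in tet-LIN28B cells, against at most 23.7 in the other gates). Lin28b stood at a normalized count of 0 in each small Pre-B control and at 230.2, 81.9 and 124 in the tet-LIN28B libraries. The transgene is a human cDNA and reads were aligned to the mouse genome, so these counts may not give its level. Lin28b in the other stages is not given here.

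Class II molecules carry peptides of extracellular origin to the surface of antigen-presenting cells, where CD4+ T cells read them. The invariant chain occupies the peptide groove on the way to the endosome, proteases trim it, H2-DM then exchanges the remaining fragment for antigen peptides, and H2-DO restrains H2-DM, mainly in B cells. Ciita does not bind DNA itself: it is recruited to class II promoters by factors that sit on a short conserved module of X and Y boxes. In the mouse, surface class II is low on early B cell precursors and is gained as the cells mature.

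Most of the pathway lies side by side on chromosome 17 (GRCm38.p6, NCBI RefSeq). From low to high coordinates these are H2-Oa (34092379 to 34095234), H2-DMa (34119693 to 34139101), H2-DMb2 (34143229 to 34151553), H2-DMb1 (34153191 to 34160229), H2-Ob (34238905 to 34245908), H2-Ab1 (34263227 to 34269418), H2-Aa (34282744 to 34287823) and H2-Eb1 (34305867 to 34316674). H2-Aa is read from the minus strand and the other 7 from the plus strand. Ciita lies on chromosome 16 (10480014 to 10531064), and Cd74 is also outside the cluster. The deposited values are per gene and cover the exons of each.

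The promoter stretches of 4 members are shown. All of them hold the Y box core, and 2 also hold a match to the X1 box core. H2-Oa and H2-Ob hold the Y box core here too and are not shown. Only these 2 cores were searched, so a missing match does not mean a missing X box. Each printed stretch is 100 bases long, from 130 to 31 bases before a RefSeq start, 5′ to 3′ on the strand of the gene. The H2-DMb2 stretch precedes a start inside its gene span (34143229 to 34151553), not the first base of that span. A match to the X1 box core (the longer capital run) or to the Y box core ATTGG is in capitals.
H2-Eb1, chr17:34305737-34305836, plus strand: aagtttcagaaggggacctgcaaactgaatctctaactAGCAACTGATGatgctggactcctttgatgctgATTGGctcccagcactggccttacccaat
H2-DMb1, chr17:34153061-34153160, plus strand: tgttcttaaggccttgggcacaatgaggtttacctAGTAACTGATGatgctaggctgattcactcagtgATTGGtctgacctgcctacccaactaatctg
H2-DMb2, chr17:34145119-34145218, plus strand: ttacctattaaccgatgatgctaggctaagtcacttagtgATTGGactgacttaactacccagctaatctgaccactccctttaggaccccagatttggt
H2-Aa, chr17:34287854-34287953, minus strand: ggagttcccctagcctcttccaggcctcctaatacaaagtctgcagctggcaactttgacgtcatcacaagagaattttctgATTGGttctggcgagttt

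Of the 10 members, 7 had a promoter entry (8 windows, since H2-DMa has 2). H2-Ab1, Cd74 and Ciita had none. Both strands of each window of 250 bases before and 50 after the start were searched. The X1 core followed by ATTGG after 10 to 30 bases occurred in 7 of 32851 windows (0.0213%), 2 of them those of H2-DMb1 and H2-Eb1, with 23 and 22 bases between the boxes. The X1 core alone was in 0.968% of windows and also in that of H2-Oa, 141 bases before its start. ATTGG alone was in 37.4% of windows on either strand and is thus a weak description. With its first base on the gene strand between 100 and 41 bases before the start, a window chosen after the members had been seen, it was in 7.63% of windows and in 6 members: H2-Oa (43 bases before the start), H2-Aa (48), H2-Ob (57), H2-Eb1 (59), H2-DMb1 (61) and H2-DMb2 (90). The H2-DMb2 distance is counted from the start inside its gene span. A match describes letters and is no evidence of binding.

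In small Pre-B cells, 9 of the 10 class II genes were higher in tet-LIN28B than in control cells by limma at an adjusted p below 0.05, and none was lower. Of all 14664 genes tested in that stage, 7.34% were called higher and 7.03% lower. Since the members were chosen with earlier results of these data known, their count is no independent test against these shares. The fold changes of the 9 genes ran from 1.39 for H2-Ob to 2.64 for H2-DMb2, with a median over the 10 genes of 0.92 on the log2 scale against -0.00 over all genes. In all 9 the 3 tet-LIN28B libraries lay above the 3 controls, a pattern seen for 17.7% of genes, while 16.2% lay wholly below the controls. Fold changes are from log2(normalized count + 1), where a normalized count is the read count of a gene divided by the size factor of its library. In bulk samples such as these, more cells with a transcript and more RNA per cell cannot be told apart.

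**Figure D1:**
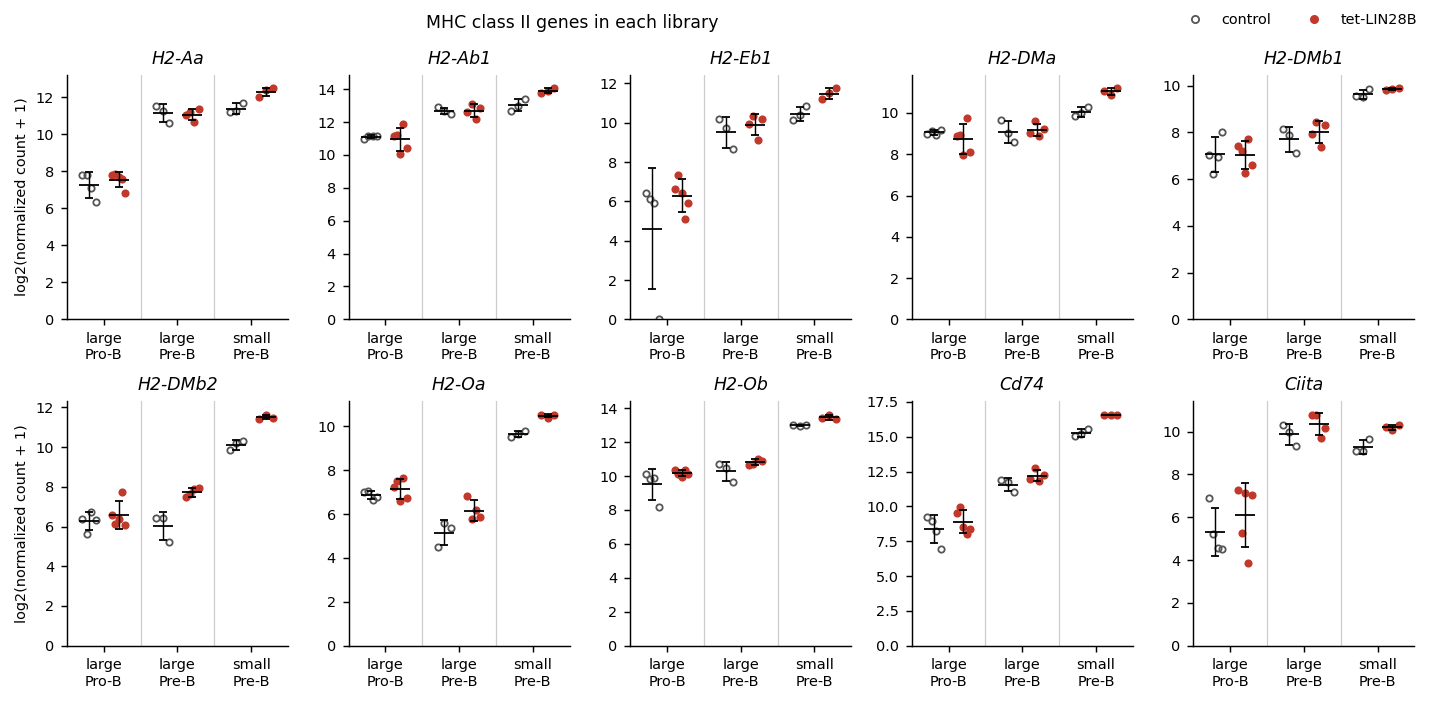
Normalized counts of the 10 class II genes in each of the 22 libraries, on a log2(normalized count + 1) axis, for controls (open) and tet-LIN28B (filled) in the 3 stages; bars give the mean and SD. In small Pre-B cells the tet-LIN28B points lie above the controls in every panel but that of H2-DMb1. The tables of the stages were normalized separately, so heights are compared within a stage only.

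The classical chains moved by similar amounts. H2-Aa, the I-A alpha chain, stood at normalized counts of 2339.6, 2452 and 3376 in the controls and at 4207, 5319 and 5751 in the tet-LIN28B small Pre-B cells (log2 fold change 0.91, SE 0.15, limma adjusted p = 0.00351). H2-Ab1, the I-A beta chain, stood at 6563, 8178 and 10728 in the controls and at 14086, 15464 and 16956 in tet-LIN28B cells (0.89, SE 0.15, limma adjusted p = 0.00382). H2-Eb1, the I-E beta chain, stood at 1107, 1348.3 and 1815 against 2322, 2938 and 3427 (1.04, SE 0.18, limma adjusted p = 0.0049). Control 3 was the highest control for all 3 chains and was still below the lowest tet-LIN28B library.

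Cd74 (chromosome 18, 60803849 to 60812652, plus strand) was the most abundant member, and its tet-LIN28B libraries scattered little. The controls held 34277, 37181 and 48842 normalized counts, and the tet-LIN28B libraries 95907, 98363 and 98171 (log2 fold change 1.30, SE 0.11, limma adjusted p = 0.000128). The 3 tet-LIN28B libraries were nearly level with each other (SD 1366 on a mean of 97481), while the controls spread more widely (SD 7709 on a mean of 40099.7).

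The peptide exchange factor rose unevenly between its genes. H2-DMb2, one of the alternative beta chains of H2-DM, had the largest change of the pathway in this stage, from 913, 1169.9 and 1264 in the controls to 2779, 3181 and 2814 (log2 fold change 1.40, SE 0.12, limma adjusted p = 0.000135). H2-DMa, the alpha chain, went from 920.4, 1027 and 1246 to 2105, 1894 and 2333 (0.99, SE 0.12, limma adjusted p = 0.000835). H2-DMb1, the other beta chain, is the member that did not pass: 757, 718 and 923 in the controls against 903, 921 and 940.4 (0.21, 95% interval -0.04 to 0.46, limma adjusted p = 0.243). The highest H2-DMb1 control overlapped the tet-LIN28B libraries, which were themselves close together (SD 18.6 on a mean of 922). The transcripts of H2-DMb1 and H2-DMb2 are 94.6% identical over 1219 aligned bases, and 27.2% of the stretches of 50 bases in H2-DMb1 also occur in H2-DMb2, so the split of reads between these neighbours is uncertain. In H2-DMb2, 29.5% of such stretches occur in any other gene (165 genes in all) and 25.2% in another member. Reads of H2-DMb2 can thus also fit genes outside the pathway.

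The inhibitor H2-DO and the transactivator moved the same way. H2-Oa, the alpha chain of H2-DO, went from 737, 806 and 890.5 to 1466, 1355 and 1483 (log2 fold change 0.83, SE 0.10, limma adjusted p = 0.000774). H2-Ob, its beta chain, showed the smallest of the called changes, from 8247, 7899 and 8200.1 to 11039, 12537 and 10399.9 (0.48, SE 0.07, limma adjusted p = 0.00293). Ciita went from 536, 543 and 802 to 1171, 1071 and 1274 (0.92, SE 0.16, limma adjusted p = 0.00419). Exons of H2-DMa overlap those of Brd2, those of H2-Oa overlap BC051537 and those of Ciita overlap Dexi, each on the opposite strand, and the SMART-Seq libraries do not keep strand, so reads in the overlaps cannot be assigned from the values. Brd2 itself did not pass in this stage (log2 fold change -0.17, limma adjusted p = 0.156).

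The same 9 genes were called when any 1 of the 6 small Pre-B libraries was left out, with another pseudocount or filter, and by edgeR and DESeq2 on the recovered reads, and the highest adjusted p among these for any of them was 0.0229 (H2-Eb1). Over all genes, edgeR called 6.78% higher and 6.98% lower, and DESeq2 9.24% and 8.91%. Markers of later B cells moved with the class II genes. Of 12 genes on a list for immature and mature B cells, 9 were higher and 2 lower in tet-LIN28B small Pre-B cells (median log2 fold change 0.72), and their summed level was 1781 to 1883 RPM in the controls and 2485 to 2675 in tet-LIN28B cells. Il2ra, a marker of the small Pre-B gate, moved the other way (log2 fold change -1.13, SE 0.07, limma adjusted p = 2.85e-05). The small Pre-B list as a whole did not: of its 6 genes 3 were higher and 2 lower, with a median of 0.02. Ighd, which marks cells past the Pre-B stage, lay between 136 and 151.8 RPM in the controls and between 136.9 and 146.7 in tet-LIN28B cells. The part of these markers in the class II difference was not tested. Markers of dendritic cells and macrophages, which also carry class II, summed to 47.6 to 59.4 RPM in the controls and 39.8 to 43.0 in tet-LIN28B cells over the 13 of 15 listed genes in the table, with none of the 5 that were tested called by limma. Itgam made up most of that sum, at 30.2 to 49.0 RPM in the controls and 28.3 to 30.9 in tet-LIN28B cells (limma adjusted p = 0.217), and Csf1r stood at 8.18 to 10.7 and 8.77 to 10.1 (0.892). Itgax stayed at or below 0.189 RPM in every small Pre-B library and Adgre1 at or below 0.348. The plasmacytoid dendritic list summed to 30.9 to 37.9 and 33.5 to 45.9, with 2 of its 4 tested genes higher and 1 lower by limma. Bst2 was at 15.2 to 17.9 RPM in the controls and 19.1 to 29.8 in tet-LIN28B cells (log2 fold change 0.55, SE 0.16, adjusted p = 0.0411), Pacsin1 at 0 to 0.219 and 0.348 to 1.37 (3.56, SE 0.94, adjusted p = 0.0315), and Ccr9 was lower at 1.11 to 1.53 and 0.435 to 0.471 (-1.42, SE 0.35, adjusted p = 0.0244). Siglech was at 0 in all 3 tet-LIN28B libraries and in 2 of 3 controls. The part of both lists in the class II difference was not tested. Of the depleted lineages, granulocyte genes summed to 0.376 to 43.6 RPM in the controls and 0.726 to 3.6 in tet-LIN28B cells, T and NK cell genes to at most 1.31, and erythroid genes to 2.14 to 3.62 and 4.2 to 5.64.

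In large Pre-B cells, no class II gene passed by limma, although 9 of the 10 estimates were above 0. In that stage 0.0424% of the 14155 genes tested were called higher and 0.0141% lower, so few calls of any kind were made. At an unadjusted p below 0.05 there were 3 members (H2-DMb2, Cd74 and H2-Oa), where 6.57% of all genes lay, and edgeR called 0 members and 0% of all genes. DESeq2 called 1 member, where it called 0.298% of 18125 genes higher and 0.116% lower. The median over the members was 0.43 on the log2 scale. It rested on single libraries: without control 1 it was 0.69 and without control 3, which stood apart, it was 0.10.

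H2-DMb2 had the largest estimate of the members in large Pre-B cells too. Its normalized counts were 85.7, 84.7 and 35.9 in the controls and 177, 195, 233 and 245 in tet-LIN28B cells, so the groups did not overlap, a pattern that 3.59% of genes showed in that direction and 2.87% in the other. The log2 fold change was 1.71 (SE 0.36, limma adjusted p = 0.193, DESeq2 adjusted p = 0.00171), and without control 3 it was 1.30 (limma adjusted p = 0.456). By DESeq2 it was then 1.37 (adjusted p = 0.0108), a fit added after seeing the data. H2-DMb2 was thus called by DESeq2 and by neither limma nor edgeR. The level was low, at 4.28 ± 1.44 RPM in the controls (SD, n = 3).

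H2-Oa also showed no overlap, with 21.96, 47.8 and 39.7 in the controls and 111, 53.5, 70.8 and 58.3 in the other genotype (log2 fold change 1.00, SE 0.44, limma adjusted p = 0.747, and 1.09 without control 3). Cd74 stood at 3878, 3453 and 2057 against 4074, 6778, 3595 and 4935, with the lowest tet-LIN28B library inside the range of the controls (0.64, SE 0.27, limma adjusted p = 0.747, and 0.36 without control 3). H2-Ob, at 1679, 1405 and 809 against 1597, 1679, 2054 and 1882, had an estimate of 0.53 (95% interval -0.00 to 1.07), which was 0.22 without control 3. The I-A chains had estimates close to 0: H2-Aa -0.07 (95% interval -0.62 to 0.48) and H2-Ab1 0.02 (-0.49 to 0.54). Without control 3 they were -0.34 and -0.07. For H2-Eb1, H2-DMa, H2-DMb1 and Ciita, the estimates were 0.38, 0.09, 0.31 and 0.48, each with an interval that holds 0, and without control 3 they were -0.06, -0.17, 0.0004 and 0.21. Markers of dendritic cells and macrophages summed to 19.4, 329.5 and 74.4 RPM in controls 1, 2 and 3 and to 13.5 to 19.2 in the 4 tet-LIN28B libraries. Immature and mature B markers summed to 1066, 1045 and 804 RPM in these controls and to 1048, 1079, 1052 and 1146 in tet-LIN28B libraries. Of 11 tested genes on that list limma called 0, with a median of 0.57. An unadjusted p below 0.05 was found for 6 of them, where 6.57% of all genes lay. The part of both lists in the class II values was not tested.

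**Figure D2:**
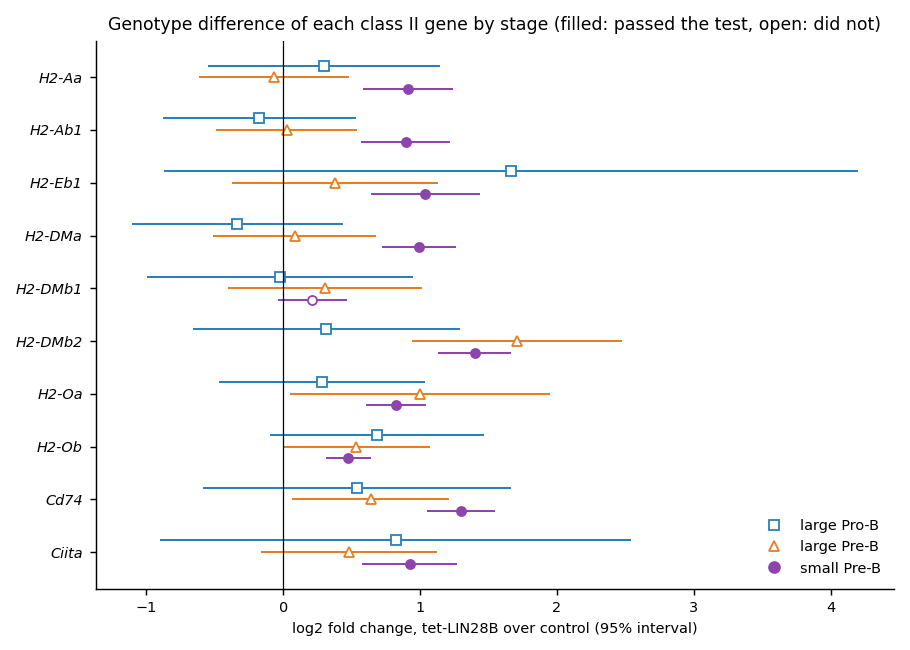
Log2 fold changes of tet-LIN28B over control for the 10 class II genes in the 3 stages, with 95% intervals from limma; filled symbols passed an adjusted p of 0.05 over all genes of the stage. The 9 filled symbols are all of small Pre-B cells, where the intervals are shortest, and the widest interval, -0.87 to 4.198, is that of H2-Eb1 in large Pro-B cells, whose estimate of 1.66 was 0.42 without the 2 libraries that stood apart.

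In large Pro-B cells no class II gene differed between genotypes by limma (adjusted p = 0.999 for each of the 10), 0% of the 13776 genes tested were called in either direction, and no member had an unadjusted p below 0.05, where 2.86% of all genes lay. edgeR and DESeq2 called 0 members as well, where edgeR called 0% of genes and DESeq2 0.0223% higher and 0% lower. Estimates were above 0 for 7 of the 10, with a median of 0.31 on the log2 scale, which was 0.13 without the 2 libraries that stood apart. The genotypes overlapped for every member, where 0.697% of genes lay wholly above and 0.602% wholly below the controls. H2-Ab1, the highest member in these cells, stood at normalized counts of 2034, 2308, 2283 and 2287 in the controls and at 2258, 2404, 1071, 3751 and 1372 in tet-LIN28B cells, with an estimate of -0.17 (95% interval -0.88 to 0.53) that was -0.39 without control 4 and tet-LIN28B 4. The controls were thus tightly grouped for this gene and the tet-LIN28B libraries were not.

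Several members were low in large Pro-B cells. H2-Eb1 stood at 85.8, 67.9, 60.0 and 0 in the controls and at 99.1, 159.7, 84.4, 32.9 and 60.2 in tet-LIN28B cells. The 0 in control 4 is a count of 0 among 15774790 reads, which allows a level of up to 0.19 RPM (3 reads, counting error only). Ciita was at 119, 36.3, 22.3 and 21.8 against 151, 37.9, 141, 13.7 and 129, which puts high and low libraries in both genotypes (0.82, 95% interval -0.90 to 2.54, and 1.12 without both replicates 4). Cd74 was at 589.6, 504, 304 and 124 against 746, 1009, 368, 263 and 326, and in each genotype replicate 4 was the lowest. In the same library order, dendritic and macrophage markers summed to 121, 164, 90.1 and 38.5 RPM against 70.5, 71.8, 63.0, 45.6 and 74.0. Immature and mature B markers summed to 739, 742, 552 and 253 against 621, 644, 618, 394 and 606. Replicate 4 was not the lowest for plasmacytoid dendritic or granulocyte genes. The part of these markers in the class II values was not tested. H2-Ob had the largest estimate relative to its error in this stage (0.68, SE 0.36, limma adjusted p = 0.999), with 1114, 916, 925 and 289.7 in the controls and 982 to 1332 in tet-LIN28B cells, where control 4 alone lay far below. Without control 4 the H2-Ob estimate was 0.25, and without both replicates 4 it was 0.20.

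Genotype effects were compared between stages over the 11830 genes tested in all 3, with the mouse as a random block. No member passed by limma in any of the 3 contrasts, against 0% called larger and 0% smaller in large Pre-B over large Pro-B, 0.0254% and 0.00845% in small Pre-B over large Pro-B, and 0.0169% and 0% in small over large Pre-B cells. The smallest p-values were those of H2-DMb2, whose difference was larger in large Pre-B than in large Pro-B cells by 1.35 on the log2 scale (SE 0.45, limma adjusted p = 0.971), and of H2-DMa, larger in small Pre-B than in large Pro-B cells by 1.33 (SE 0.45, limma adjusted p = 0.757). H2-Ab1 had a larger difference in small Pre-B than in large Pro-B cells by 1.07 (SE 0.41, limma adjusted p = 0.857) and than in large Pre-B cells by 0.91 (SE 0.43, limma adjusted p = 0.999). For Cd74 the difference in small Pre-B cells exceeded that in large Pre-B cells by 0.57 with an SE of 0.64. Without the 3 libraries that stood apart these 5 differences were 1.16, 1.54, 1.27, 0.99 and 0.91, and again no member passed, the smallest limma adjusted p being 0.0573 (H2-DMa, small Pre-B over large Pro-B). The calls were therefore made in small Pre-B cells, but no member was shown to respond differently from one stage to the next.

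The level of the pathway across stages was read from recovered RPM, as a description, because the stages were normalized separately, small Pre-B cells came from other mice and their table lists fewer genes. In controls, most members were higher along the sequence of stages, but not at the same step. H2-Aa stood at 9.19 ± 3.88 RPM in large Pro-B cells (SD, n = 4), at 147 ± 30.4 in large Pre-B cells (n = 3) and at 78.6 ± 16.3 in small Pre-B cells (n = 3). H2-Eb1 took the same course, at 2.98 ± 2.08, 49.8 ± 19.1 and 41.1 ± 10.4, where the last 2 overlap. H2-Ab1 was already at 124 ± 7.33 in large Pro-B cells, then at 419.8 ± 22.1 and 245 ± 60.4. For H2-Aa and H2-Ab1 no library of one stage overlapped the neighbouring stage. The fall from large to small Pre-B cells in these 2 genes is a fall in their share of all reads, and the deposited normalized counts, on their separate scales, stand the other way round (0.22 and 0.37 higher on the log2 scale in small Pre-B cells).

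Ciita followed the I-A chains. It stood at 2.77 ± 2.58 RPM in large Pro-B (n = 4), 60.9 ± 13.3 in large Pre-B (n = 3) and 18.1 ± 4.36 in small Pre-B controls (n = 3), without overlap between neighbouring stages, and it was below the large Pre-B level on both scales. Cd74 instead was higher at both steps, from 21.2 ± 11.7 to 197 ± 40.03 and then to 1157 ± 221 RPM. H2-DMb2 and H2-Oa were highest in the last stage. H2-DMb2 was at 4.39 ± 1.27, 4.28 ± 1.44 and 32.2 ± 5.24, where the first 2 stages overlap, and H2-Oa went from 6.51 ± 0.93 to 2.38 ± 0.96 and then to 23.4 ± 2.20. H2-Ob went from 45.2 ± 20.1 and 81.3 ± 19.7, which overlap, to 234 ± 5.16. H2-DMa stayed at 29.8 ± 2.39, 35.6 ± 9.45 and 30.7 ± 4.77 RPM, with overlap between all stages. H2-DMb1 went from 8.12 ± 4.29 over 13.6 ± 3.29 to 23.1 ± 3.12, with overlap of the first 2. For H2-DMa and H2-Eb1 too the last step depends on the scale. Their small over large Pre-B ratios in controls were 0.863 and 0.824 by RPM, and 1.88 and 1.77 by deposited normalized counts.

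In tet-LIN28B cells the I-A chains did not show the lower RPM in the last stage. H2-Aa stood at 10.8 ± 2.76, 131 ± 31.1 and 143 ± 24.1 RPM in the 3 stages (SD, n = 5, 4 and 3) and H2-Ab1 at 118 ± 47.4, 408 ± 109 and 437 ± 46.3, and for both genes large and small Pre-B libraries overlapped. H2-DMa, level in the controls by RPM only, was at 25.4 ± 11.2, 34.9 ± 7.36 and 59.4 ± 6.91 RPM. Its small Pre-B libraries (53.0 to 66.7) lay above those of large Pre-B cells (27.2 to 43.8). Ciita was again highest in large Pre-B cells, at 81.2 ± 26.0 against 5.44 ± 3.76 and 33.0 ± 3.25, and Cd74 went from 30.3 ± 17.9 over 288 ± 78.7 to 2743 ± 67.9. On deposited normalized counts the small over large Pre-B ratio in tet-LIN28B cells was 2.32 for H2-Aa and 2.27 for H2-Ab1, so for these chains the step depends on the scale in both genotypes, and in the test of genotype effects between stages neither gene passed by limma for small over large Pre-B cells.

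**Figure D3:**
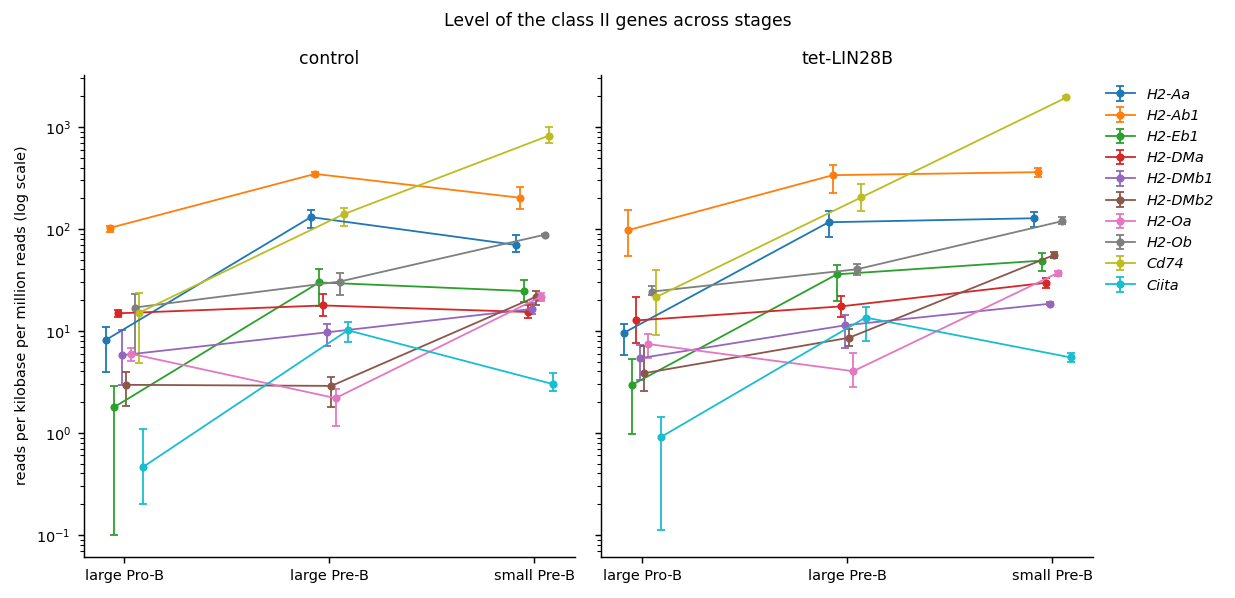
Level of the 10 class II genes in RPKM (RPM per kilobase of transcript), on a log axis, in controls (left) and tet-LIN28B (right); points are means over libraries and bars reach from the lowest to the highest library. H2-Ab1 leads in large Pro-B cells and Cd74 in small Pre-B cells, Ciita peaks in large Pre-B cells in both genotypes, and the bar of H2-Eb1 that reaches 0 is drawn down to 0.1.

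Per kilobase of transcript, which allows genes to be compared, the order of the members changed with the stage. In large Pro-B controls H2-Ab1 came first at 102 ± 6.05 RPKM (SD, n = 4), followed by H2-Ob at 16.9 ± 7.54, Cd74 at 15.0 ± 8.27 and H2-DMa at 14.9 ± 1.19, which do not differ beyond their spread, and Ciita came last at 0.461 ± 0.43. In large Pre-B controls H2-Ab1 still led at 346 ± 18.3 (n = 3), with Cd74 at 139.5 ± 28.4 and H2-Aa at 131 ± 27.0 next and overlapping. In small Pre-B controls Cd74 led at 821 ± 157 RPKM, then came H2-Ab1 at 202 ± 49.8, H2-Ob at 87.7 ± 1.93 and H2-Aa at 69.6 ± 14.5, and Ciita was last again at 3.01 ± 0.73. In tet-LIN28B small Pre-B cells Cd74 stood at 1946 ± 48.2 and H2-Ab1 at 360.2 ± 38.2 (n = 3).

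Ratios within a library do not depend on the normalization. They are given without a test, since they were formed after the values were known, and 3 libraries against 3 could not go below p = 0.1 in an exact permutation test. H2-Ab1 exceeded H2-Aa, its partner chain, by a median of 9.67 per kilobase in the 9 large Pro-B libraries (4.90 to 26.1), and by 2.69 in large Pre-B (2.36 to 3.46) and 2.85 in small Pre-B cells (2.61 to 3.12). The 2 chains were thus far apart in the Pro-B gate and near a constant ratio from then on, in both genotypes. Cd74 over H2-Ab1 was 0.0467 to 0.361 in large Pro-B, 0.309 to 0.664 in large Pre-B and 3.91 to 5.85 in small Pre-B cells. Within small Pre-B cells it was 4.49, 3.91 and 3.91 in the controls and 5.85, 5.47 and 4.98 in tet-LIN28B cells, and within large Pre-B cells 0.439, 0.462 and 0.309 against 0.563, 0.652, 0.664 and 0.561. In both Pre-B stages every tet-LIN28B library thus held more invariant chain per I-A beta chain transcript than every control. The share of gene pairs that separate likewise was not computed. Of single genes, 17.7% lay wholly above and 16.2% wholly below the controls in small Pre-B cells. In large Pre-B cells 3.59% and 2.87% did.

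Of the reads of both H2-DM beta chains, per kilobase, H2-DMb2 took 53.3%, 60.7% and 56.5% in small Pre-B controls and 74.4%, 76.6% and 73.9% in tet-LIN28B cells. In large Pre-B cells it took 22.4%, 25.5% and 20.01% in the controls and 40.7%, 35.1%, 57.2% and 42.4% in tet-LIN28B cells. In both Pre-B stages the genotypes did not overlap, while in large Pro-B cells they did (22.6% to 44.4% against 30.5% to 51.0%). How many other gene pairs separate likewise was not computed. These shares carry the uncertainty of reads that fit both genes or, for H2-DMb2, genes outside the pathway. H2-Ob over H2-Oa, the chains of the inhibitor, was 3.75 to 4.56 per kilobase in small Pre-B controls and 2.86 to 3.77 in tet-LIN28B cells, which overlap, and reached 5.84 to 31.1 in large Pre-B cells, where H2-Oa was lowest.

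**Figure D4:**
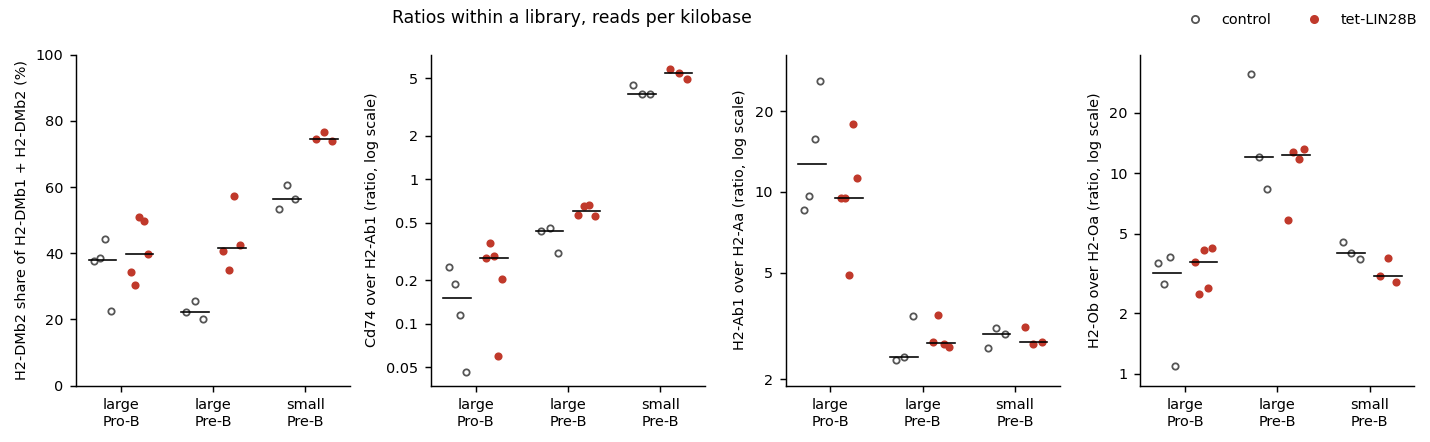
Ratios of class II genes within each library, from reads per kilobase, for controls (open) and tet-LIN28B (filled), with a line at the median: the share of H2-DMb2 among the H2-DM beta chains in percent, and Cd74 over H2-Ab1, H2-Ab1 over H2-Aa and H2-Ob over H2-Oa on log axes. The H2-DMb2 share in small Pre-B cells is 53.3% to 60.7% in controls and 73.9% to 76.6% in tet-LIN28B cells.

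Other genes of antigen presentation were read from lists. In small Pre-B cells, 9 of 14 tested genes for class II antigen processing were higher and 1 lower by limma, with a median of 0.46 on the log2 scale. March1, a ubiquitin ligase that removes class II from the surface, was at 115, 91.9 and 106 normalized counts in the controls and at 805, 921 and 663 in tet-LIN28B cells (2.91, SE 0.17, limma adjusted p = 1.72e-05). Ifi30, a lysosomal thiol reductase, was at 1015, 1081 and 1118 against 2078, 1850.1 and 1674 (0.80, SE 0.10, limma adjusted p = 0.000824). Ctss, the protease that trims the invariant chain in B cells, was at 5122, 4774 and 5118 against 7484, 6759 and 7432 (0.53, SE 0.07, limma adjusted p = 0.00102), and Lgmn, an asparaginyl endopeptidase, had an estimate of 0.48 (SE 0.06, limma adjusted p = 0.00116). The genes called higher thus include some that prepare class II for loading and one that takes it off the surface.

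March8, a ligase related to March1, was the single gene of the list that was lower, and it is named after its values were seen: 98.6, 77.8 and 78.0 in the controls and 21.8, 1.04 and 21.7 in tet-LIN28B cells (-3.07, SE 0.80, limma adjusted p = 0.0302). That call was lost when any 1 control was left out, and a filter on a mean of at least 50 left March8 out of the test. None of the 8 factors of the class II enhanceosome passed by limma, edgeR or DESeq2, none had an unadjusted p below 0.05 by limma, and their median was -0.01 on the log2 scale. This list holds Rfx5, Rfxap and Rfxank, the subunits of the X box factor RFX, with estimates of -0.06, 0.17 and -0.08, and Nfya, Nfyb and Nfyc, the subunits of the Y box factor NF-Y, with -0.02, -0.01 and 0.04. Of the genes whose promoter stretches are printed above, H2-Eb1, H2-DMb2 and H2-Aa were called higher and H2-DMb1 was not. Whether RFX or NF-Y binds those stretches, and their part in the class II difference, was not tested.

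Of 14 tested factors described at the Ciita promoters, 4 were higher and 3 lower, with a median of -0.06. Spi1, which encodes PU.1, was at 4125, 4495 and 4373 in the controls and at 6361, 6032 and 6138 in tet-LIN28B cells (0.51, SE 0.06, limma adjusted p = 0.00088). Irf8 was also higher (0.32 on the log2 scale, limma adjusted p = 0.0113), as was Ets1 (0.31, limma adjusted p = 0.04). Without control 1 Irf8 was not called (adjusted p = 0.0524). Ebf1, a factor that sets B cell identity, was lower, at 49465, 47731 and 45819 against 35223, 37768 and 39064 (-0.35, SE 0.06, limma adjusted p = 0.00538). Prdm1, which encodes Blimp-1, a repressor of Ciita in plasma cells, was at 319, 327 and 302 against 154, 221 and 85.1 (-1.14, SE 0.29, limma adjusted p = 0.0275), and Irf4 had -0.39 (limma adjusted p = 0.0363). The number of lower genes on this list was between 1 and 3 when 1 library was left out. Ets1, Prdm1, Irf4 and Pax5 are named with their values known. Pax5 did not pass (-0.10, limma adjusted p = 0.667).

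Class I presentation genes were called in both directions. Of 19 tested genes, 9 were higher and 1 lower, with a median of 0.24 on the log2 scale, against 0.92 for the class II members. Calr, a chaperone of the loading complex, had the smallest adjusted p (0.59, SE 0.06, limma adjusted p = 0.000442), followed by the immunoproteasome gene Psmb8 (0.37), the proteasome activator Psme1 (0.35) and the loading factor Pdia3 (0.49, not called without control 1 or control 3). The number called higher fell to 3 without control 1 and was 5 without control 2, control 3 or tet-LIN28B 1. Nlrc5, the class I counterpart of Ciita and the single lower gene, was at 2041, 1502 and 1905 against 1370.0, 1028 and 1141 (-0.62, SE 0.14, limma adjusted p = 0.0143), and that call was lost without control 1 or control 3. The 2 transactivators of antigen presentation thus had estimates of opposite sign in small Pre-B cells, a comparison made with the values known.

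Among 9 tested costimulatory genes 2 were higher and 2 lower, with a median of 0.23. Cd86, a ligand of CD28, was at 282, 243 and 334 in the controls and at 749.8, 616 and 648 in tet-LIN28B cells (1.23, SE 0.15, limma adjusted p = 0.000791). Cd83, which keeps class II on the surface by opposing March1, was at 342, 356 and 415 against 488, 557 and 537 (0.51, SE 0.13, limma adjusted p = 0.0269), a call that was lost when control 1, control 2, tet-LIN28B 2 or tet-LIN28B 3 was left out. Cd72, an inhibitory coreceptor, was lower (-0.57, SE 0.06, limma adjusted p = 0.000315), as was Cd1d1, which presents lipids (-0.42, SE 0.07, limma adjusted p = 0.00513). Of 5 tested genes beside the class II genes on chromosome 17, Btnl2 (1.4998, SE 0.30, limma adjusted p = 0.00912) and Tap1 (0.29, SE 0.08, limma adjusted p = 0.035) were higher. Btnl2 was low, at 40.9, 23.8 and 34.8 against 83.8, 98.5 and 98.7, and Tap1 lost its call without tet-LIN28B 1, tet-LIN28B 3, control 1 or control 2, and with equal library totals.

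In large Pro-B and large Pre-B cells, limma called no gene of any of these lists. In large Pro-B cells 1 gene had an unadjusted p below 0.05, on the processing list, and in large Pre-B cells 1, 3 and 1 had one on the processing, Ciita regulator and costimulation lists. edgeR called none, and DESeq2 called 1 in large Pre-B cells, Cd83 on the costimulation list.

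**Figure D5:**
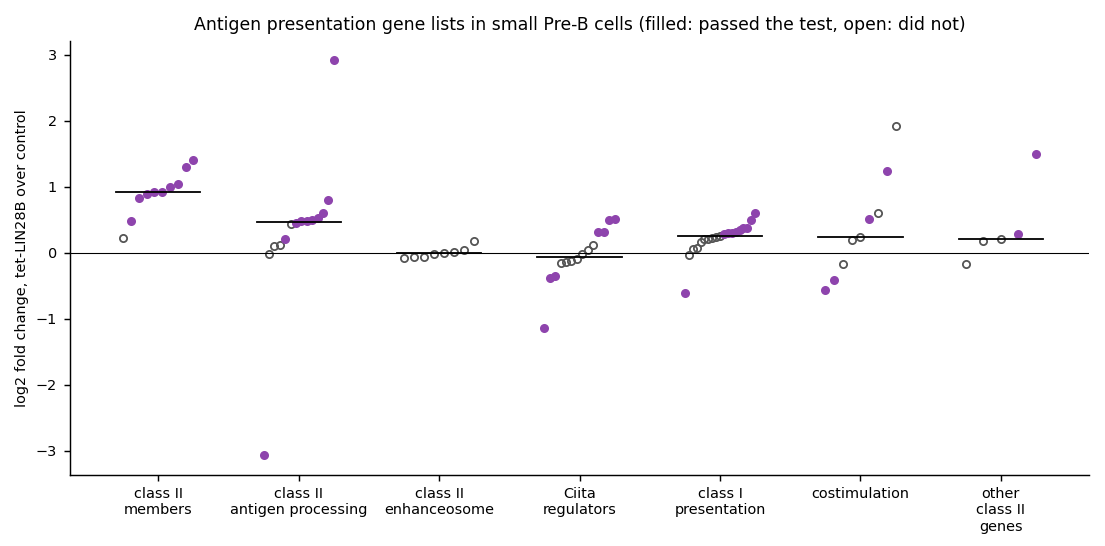
Log2 fold changes of tet-LIN28B over control in small Pre-B cells for the class II members and the 6 other lists; each point is a gene, filled where it passed an adjusted p of 0.05 by limma, and lines are medians. The class II members sit highest with a median of 0.92, class II antigen processing has 0.46 and the enhanceosome -0.01.

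The genes whose scatter was most like that of the class II genes were sought over all 22 libraries and 10733 genes. The reference was the mean of H2-Aa, H2-Ab1, H2-Eb1 and Cd74, each as the deviation of its log2 value from the mean of its stage and genotype, so that neither stage nor genotype enters. The highest correlations outside the pathway were those of H2-M3, a nonclassical class I gene (Pearson r = 0.946), Tcn2 (0.938), Dop1b (0.931), Plin3 (0.929) and Gbp9 (0.919). Within the pathway, H2-Eb1 (0.940), Cd74 (0.927) and H2-Aa (0.896), which are part of the reference, and H2-Ob (0.793) were close to it, while Ciita (0.335), H2-Ab1 (0.311), H2-DMa (0.262), H2-Oa (0.098), H2-DMb2 (0.024) and H2-DMb1 (-0.101) were not. Without the 3 libraries that stood apart, the 5 genes outside the pathway had r from 0.754 to 0.842 over 19 libraries, H2-Ab1 (0.869), H2-DMa (0.871) and H2-DMb1 (0.712) came close to the reference, and H2-Ob (0.166) and Ciita (0.055) did not, so which members follow it depends on those libraries. Large Pro-B libraries spread most, and control 4 lay 1.71 below its group in the reference, so the values describe mainly that stage. In small Pre-B cells none of the 5 genes was higher with genotype: H2-M3 had an estimate of 0.06 (limma adjusted p = 0.759), Plin3 of -0.03 (0.814) and Gbp9 of -0.14 (0.281), Tcn2 had -0.26 (0.0951), and Dop1b was lower (-0.53, SE 0.10, limma adjusted p = 0.00795).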

How the data were processed

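Poly-A RNA was measured in 22 libraries. The submitters' processing notes name STAR 2.7.1 with mm10, RSEM 1.28 for quantification and DESeq2 for normalization by the authors, without the annotation. The authors deposited 1 table per stage, whose signal is a count divided by a size factor. Their tables of log2 fold changes, standard errors, test statistics and p-values were not used. Of 2 named sequencers, the sources do not say which ran which library.

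Whole reads were recovered from the steps of the signal for at least 99.9962% of values (within 0.1 read). Genotypes were compared per stage with limma 3.58.1 (R 4.3.3, trend) on log2(normalized count + 1). Genes needed at least 10 in as many libraries as the smaller group, and p-values had Benjamini-Hochberg adjustment over all genes at 0.05. edgeR 4.0.16 and DESeq2 1.42.0 on recovered reads, 2 pseudocounts (0.5 and 4), other filters, equal library totals, a replicate block and each library left out were alternatives. The filter and fit were tested on simulated data. Per the labels, replicates are separate mice. PCR reads carry no molecular identifiers, so floors cover counting error only.

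Promoters are from RefSeq (GRCm38.p6), transcript lengths from GENCODE. R had altered some symbols, and those with 1 reference match were restored (1944 of 2157 in small Pre-B cells). Named genes were the 10 members, up to 4 called genes per list with the smallest adjusted p, and the 5 genes most like the pathway. Genes named outside this rule, with their values known, include March8, Ets1, Prdm1, Irf4, Pax5, Nlrc5 and the RFX and NF-Y subunits. Some of the genes the rule names are not reported here. The members and lists, which include the marker lists, were chosen with earlier results of these data known.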

Additional observations from a re-analysis of the deposited data

Results flagged for a closer look

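Of the 30 groups of 4 or 5 libraries formed by the 10 class II genes, 3 had 1 library far from the rest, where chance alone gives about 1 in 20. All 3 are in large Pro-B cells. H2-Ab1 in control 1 was at 2034 normalized counts, below the other 3 controls at 2283 to 2308. H2-DMb2 in tet-LIN28B 4, one of the libraries that stood apart over all genes, was at 216, above the other 4 at 66.5 to 93.6. Ciita in control 1 was at 119, above the other 3 controls at 21.8 to 36.3. What sets these libraries apart was not tested.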

How the results depend on the processing

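In small Pre-B cells the same 9 members were called under all 14 alternatives, with log2 fold changes between 0.40 (H2-Ob) and 1.497 (H2-DMb2). In large Pro-B cells no alternative called a member, and in large Pre-B cells DESeq2 alone called 1 member and 1 costimulatory gene. DESeq2 without large Pre-B control 3, a choice made after seeing the data, gave -0.11 for H2-DMa. Equal library totals moved the median of all genes in large Pre-B cells from -0.02 to -0.12 on the log2 scale, and turned the estimates of H2-Ab1 to -0.083 and H2-DMa to -0.0219. Replicate numbers did not pair the samples (correlations of deviations between -0.19 and 0.43). With a replicate block 9 members were called in small Pre-B cells and 0 in each other stage, and the estimates of H2-Ab1 in large Pre-B cells and H2-DMb1 in large Pro-B cells turned to -0.037 and 0.091. Without the 2 large Pro-B libraries that stood apart, a choice made after seeing the data, H2-Aa was at -0.015 and H2-DMb1 at 0.13. With each library left out in turn, large Pro-B estimates ran from -0.0024 to 0.48 for H2-Aa, -0.40 to 0.047 for H2-Ab1 and -0.30 to 0.30 for H2-DMb1, and large Pre-B estimates from -0.34 to 0.13 for H2-Aa, -0.12 to 0.20 for H2-Ab1, -0.055 to 0.71 for H2-Eb1 and -0.17 to 0.36 for H2-DMa. In small Pre-B cells the counts of genes called higher then ran from 3 to 10 for class I presentation, 1 to 2 for costimulation and 1 to 2 for other class II genes, and of genes called lower from 0 to 1 for antigen processing, 1 to 3 for Ciita regulators and 0 to 1 for class I. Equal totals left 1 of the other class II genes higher, and a mean of at least 50 left 0 antigen processing genes lower. On deposited normalized counts, small over large Pre-B controls gave 0.22 for H2-Aa and 0.37 for H2-Ab1 on the log2 scale, against -0.91 and -0.78 from RPM (reads per M recovered reads). The causes were not tested. A count of 0, as for H2-Eb1 in large Pro-B control 4, still allows up to 0.19 RPM.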
